A study of Homo sapiens with 6 samples.

Results

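The data compare CL1-5 lung cancer cells given a high or a low concentration of tanshinone I in the same conditioned medium. The comparison takes 5 of the 6 arrays of the series and every feature spotted on them, of which 813 gave signal on at least 1 of the 5 and 339 on none. The high side holds the 2 arrays at 1 and 10 µg/mL, and the low side holds the 3 arrays at 0, 0.01 and 0.1 µg/mL. The sides were set by the concentrations in the array titles, with the dimness of the 1 and 10 µg/mL arrays already known. The array from cells without conditioned medium (CM) belongs to neither.

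CL1-5 is an invasive line derived from a human lung adenocarcinoma. The cells of all 5 arrays received medium conditioned by macrophages, so the medium is shared by both sides and the concentration of tanshinone I is what differs. Each concentration was measured on 1 array. The arrays of a side are therefore different doses and not repeats, and the spread within a side includes any effect of dose. Per the labels each experiment was run 3 times, but no source used here says whether a column is a mean of those runs.

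Tanshinone I is a diterpenoid quinone from the root of Salvia miltiorrhiza (danshen), a plant used in Chinese medicine, and is studied in cultured tumour cells for effects on growth, migration and invasion. Macrophages release cytokines, growth factors and proteases, and medium they have conditioned is used to model what tumour cells receive from macrophages in a tumour. In many cell types such factors raise transcription through nuclear factor kappa B and activator protein 1, which act on genes of inflammation, adhesion and invasion.

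The files give each feature an array ID and do not pair it with a gene. Of the IDs, 0 matched a symbol or accession in the RefSeq gene table. Markers of lung epithelium and of macrophages, inflammatory genes and the housekeeping spot could not be looked up, so the cell type was not checked and the results below are on features by ID.

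The high arrays were much dimmer than the low ones as deposited. Per the design text the authors had already rescaled the arrays by quantiles and the GAPDH spot, so this gap is in rescaled values. Values are linear spot intensities, and the authors set anything lower than 2330 to that value, called the floor here. On the low side 509 features (44.2%) were above the floor in CM alone, 690 (59.9%) with 0.01 µg/mL and 679 (58.9%) with 0.1 µg/mL. On the high side 308 (26.7%) were above it with 1 µg/mL and 368 (31.9%) with 10 µg/mL. Both high arrays lay under every low array. The mean was 338 ± 42.4 (SD, n = 2 arrays) on the high side and 626 ± 101 (SD, n = 3 arrays) on the low side, a difference of -288 features (exact permutation test over arrays, two-sided p = 0.20).

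The level of the features seen on every array moved the same way. On all 5 arrays 282 features were above the floor. Their median intensity on the 3 low arrays was 8813, 9400 and 11356 in rising order of dose, and on the 2 high arrays it was 4831 and 4793. The 2 high arrays were almost equal and the low arrays differed more among themselves. On the log2 scale the array medians averaged 12.23 ± 0.01 (SD, n = 2) on the high side and 13.26 ± 0.19 (SD, n = 3) on the low side, a difference of -1.03 (exact permutation test, two-sided p = 0.10). With 10 ways to place 2 of 5 arrays on the high side, 0.10 is the smallest p possible, so neither test could pass 0.05. The division was drawn with the dimness of the high arrays known, so both p-values serve only as a description. Per the labels 30 µg of RNA was labelled for each array. Whether a lower value reflects fewer cells of a kind, less of an RNA per cell or weaker labelling or detection on that array cannot be told apart in these values.

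**Figure D1:**
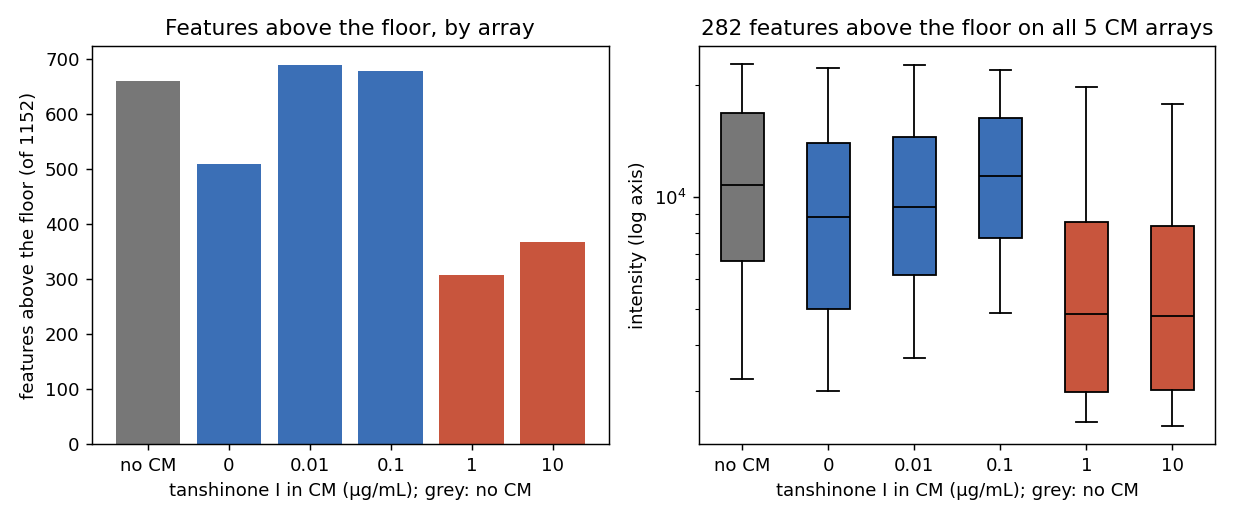
Number of features above the floor (left, bars) and intensity on a log axis of the 282 features never at the floor on the 5 CM arrays (right, boxes with median and quartiles, whiskers from the 5th to the 95th percentile over features), 1 array per concentration. Both high arrays (red) lie under the 3 low arrays (blue) and under the array without CM (grey) in number and in median.

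The array without CM, which belongs to neither side, was close to the low arrays in brightness. It had 660 features above the floor and a median of 10797 over the same 282 features. Of its 660 features, 479, 560 and 588 were also above the floor at 0, 0.01 and 0.1 µg/mL, and 298 and 353 at 1 and 10 µg/mL. Over the 282 features its value was above both high arrays for 244, within their range for 17 and below both for 21. It was within the range of the 3 low arrays for 127, above it for 100 and below it for 55. The median log2 difference was 0.13 from the low mean and 0.97 from the high mean.

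Features dropped out on the high side and almost none appeared. Of the 461 features above the floor on all 3 low arrays, 282 stayed above it on both high arrays, 73 on 1 of them and 106 on neither. The 106 were dim, with a median low-side intensity of 3349 (mean of logs) and a highest of 5809, so their fall is known only as a bound. In the other direction, 0 features were above the floor on both high arrays and at the floor on all 3 low arrays, and 8 were above it on a single high array and at the floor on all 3 low arrays.

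Feature by feature, the high side read lower nearly everywhere. Over the 282 features never at the floor on these 5 arrays the median log2 difference, high minus low, was -0.87, with an SD over features of 0.42, and it was negative for 275 and positive for 7. In 211 of the 282 (74.8%) both high arrays were below all 3 low arrays, and in 0 were both above. The difference of side means reached 2-fold lower for 91 features and 2-fold higher for 0.

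A linear model was fitted with limma to log2 intensity of the 620 features above the floor on at least 2 of the 5 arrays. It called 178 features lower on the high side (28.7%) and 0 higher (0%) at a Benjamini-Hochberg adjusted p under 0.05. At an unadjusted p under 0.05, 260 were lower and 1 (M3a02) was higher. The differences of the 178 ran from -2.06 to -0.55 on the log2 scale with a median of -1.04, against a median of -0.57 over all 620, and the median standard error was 0.20. The 620 include features at the floor on both high arrays, which passed the filter through the low arrays alone and could only read lower. They enter the counts tested, the share of 28.7% and the median of -0.57, so these do not weigh the 2 directions evenly. For 134 of the 178 all 5 arrays were above the floor, and 44 had a high array at the floor, so that their difference is a bound. In 19 of the 44 both high arrays were at the floor. These passed the filter through the low arrays alone and have no spread on the high side, so their p-values are too small. They remain in the 178 and in the later counts drawn from the 178, where their calls are no support. Fitted over the 282 features alone, 163 were called lower and 0 higher (0 higher also at an unadjusted p under 0.05). Whether features passed the threshold depended on which array was left out. Without the 0.1, the 1 or the 10 µg/mL array the same test called 0 features, with 206, 161 and 167 at an unadjusted p under 0.05. The median difference over the 178 was -0.95, -1.07 and -1.03 in these fits. The 178 were chosen for low values on these same arrays, so the small change is no separate support. Without CM alone it called 251 lower, and without the 0.01 µg/mL array 159 lower and 1 (A3b01) higher. The 0.01 µg/mL array held the only low value of A3b01 above its high values, so the call of A3b01 is no support. With 1 high array left out, the other is assumed to vary like the low arrays. The p-values treat doses as repeats of a side, and the division of the doses was drawn with the dimness of the 1 and 10 µg/mL arrays known.

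A stricter count used no test. In 31 of the 813 features above the floor on at least 1 array (3.81%) both high arrays were at least 2-fold below every low array, and in 0 (0%) were both at least 2-fold above. Of the 31, 23 were above the floor on all 5 arrays, and in the other 8 a high array was at the floor. The array without CM was nearer the low mean than the high mean for 28 of the 31. The same held for 234 of the 282 features never at the floor, so this is not particular to the 31. The number lower was 60 without CM alone, 75 without 0.01 µg/mL and 56 without 1 µg/mL.

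The 2 features with the largest fall among those called and never at the floor were M2a12 and 91h12. M2a12 read 9542, 12257 and 11972 intensity units at 0, 0.01 and 0.1 µg/mL, and 2810 and 2575 at 1 and 10 µg/mL. The low arrays were all high and the high arrays were close to the floor, 4.16-fold lower by the means of logs (log2 difference -2.06, standard error 0.18, adjusted p = 0.014 by limma). Without CM the feature read 17342, above every array with CM.

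Feature 91h12 read 9682, 10005 and 10041 on the low side and 3014 and 2350 on the high side. The low arrays were nearly equal, and the high side was 3.72-fold lower (log2 difference -1.90, standard error 0.17, adjusted p = 0.014 by limma). Without CM it read 5368, between the sides. Only these 2 of the 31 kept a gap of at least 3-fold between the nearest arrays of the sides. For both, leaving out the 0.1, 1 or 10 µg/mL array gave an adjusted p of 0.051, 0.10 and 0.13. The log2 difference stayed at -2.01, -2.12 and -1.99 for M2a12 and at -1.89, -2.08 and -1.72 for 91h12.

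No feature was called higher as deposited, so features that ran against the rest are described instead. M3a02 was at the floor in CM alone, read 3165 and 6727 at 0.01 and 0.1 µg/mL, and 7309 and 9998 at 1 and 10 µg/mL. It alone of all features was higher on both high arrays than on all low ones, but the nearest arrays were only 1.09-fold apart. The difference of side means was 1.22 on the log2 scale, a bound because CM alone was at the floor (standard error 0.47, adjusted p = 0.11 by limma). Without CM it read 3211.

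A3b01 had the largest positive difference among the 282 features and was chosen after its values were seen. It read 3692, 14271 and 4393 on the low side and 10129 and 7746 on the high side, so the sides overlap through the 0.01 µg/mL array (log2 difference 0.53, standard error 0.61, adjusted p = 0.50 by limma). Without that array the difference was 1.14 (adjusted p = 0.039 by limma). The array left out held the only low value above the high ones, so this p-value follows from its removal and is no support. With any other array left out instead, the difference ran from 0.16 to 0.72. The array without CM read 3675, close to CM alone.

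**Figure D2:**
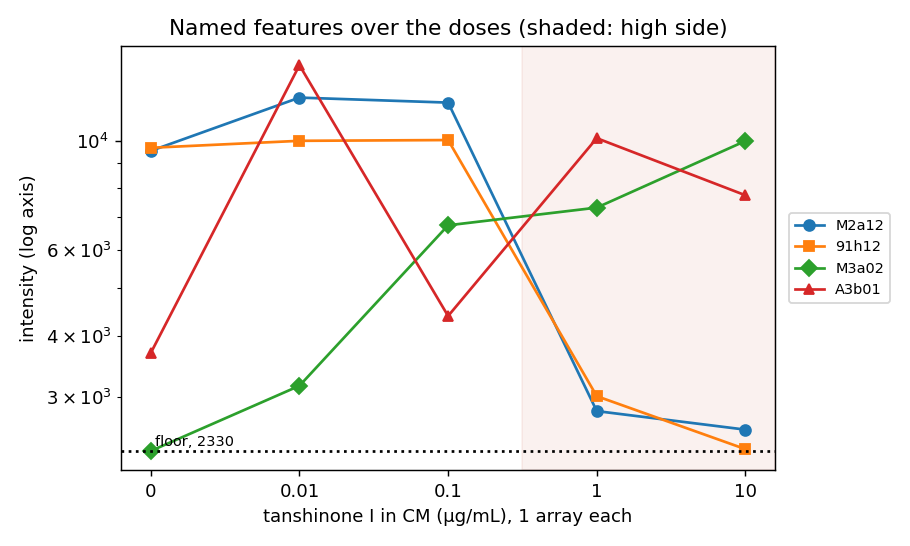
Intensity (log axis) of 4 features over the tanshinone I concentrations in CM, 1 array each, with the high side shaded and the floor dotted. M2a12 and 91h12 fall between 0.1 and 1 µg/mL, M3a02 is higher at each concentration than at the one before, and A3b01 is high at 0.01, 1 and 10 µg/mL.

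The fall lay at the step between the sides. The division was placed there with the dimness of the 1 and 10 µg/mL arrays known, so its position is not a separate result. Over the 282 features the median log2 step was 0.15 from 0 to 0.01 µg/mL (SD over features 0.61), 0.19 from 0.01 to 0.1 µg/mL (SD 0.43), -1.08 from 0.1 to 1 µg/mL (SD 0.52) and -0.03 from 1 to 10 µg/mL (SD 0.35). At the step from 0.1 to 1 µg/mL 271 of the 282 features went down and 155 did so by at least 2-fold. At the step from 1 to 10 µg/mL 151 went down and 131 up, and 2-fold steps numbered 2 down and 1 up. Within the high side few features thus differed by 2-fold, while the lowest dose differed from CM alone by 2-fold for 34 of the 282, in both directions. That was the most divergent low pair. The others had 20 such features (0 against 0.1 µg/mL) and 13 (0.01 against 0.1 µg/mL).

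**Figure D3:**
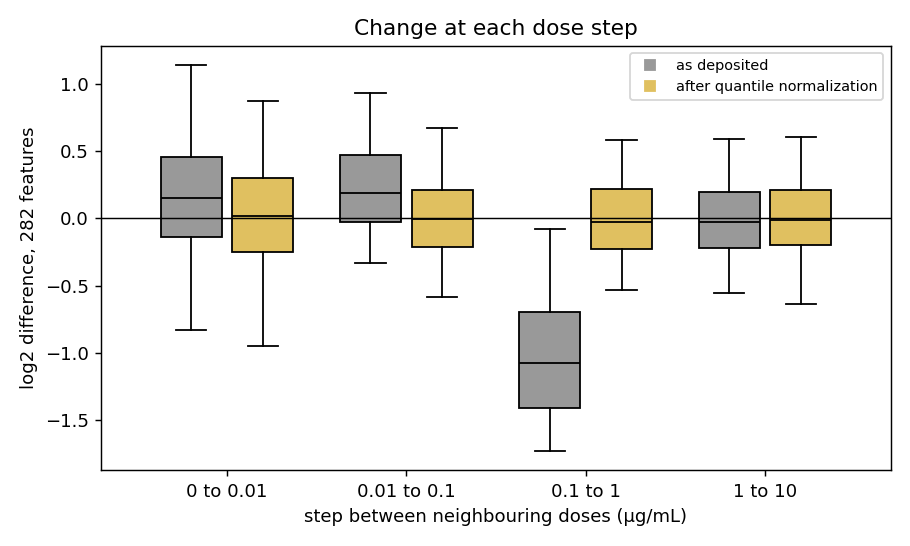
Log2 difference between neighbouring concentrations for the 282 features never at the floor on these 5 arrays, as deposited (grey) and after quantile normalization over these features (yellow); boxes show median and quartiles, whiskers the 5th to 95th percentile over features. As deposited, the step from 0.1 to 1 µg/mL has a median of -1.08, and after normalization all 4 medians lie near 0.

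Apart from this shared shift, the median scatter was larger between sides than within the low side, and the ranges overlapped. The SD over the 282 features of the log2 difference between 2 arrays, which a common shift leaves as it is, was 0.42 to 0.61 for the 6 pairs between sides (median 0.53). It was 0.43 to 0.61 for the 3 pairs within the low side (median 0.44) and 0.35 for the pair of high arrays. The most scattered low pair was CM alone against 0.01 µg/mL, at 0.61, equal to the most scattered pair between sides, and the other low pairs were at 0.43 and 0.44. After quantile normalization the medians were 0.47 between sides and 0.40 within the low side. The 1 µg/mL array kept the ranks of the 0.01 µg/mL array better (Spearman rho 0.91 over features) than CM alone did (rho 0.77), and the pair of high arrays gave 0.90. The other low pairs each gave 0.89, and the pairs between sides ran from 0.78 to 0.91. These correlations are over features that share their array's brightness and are given as a description.

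After quantile normalization 1 feature was called between the sides. The method gives all arrays 1 distribution, so it removes any overall difference whatever its cause. Normalized over all features, with the floor then set at 3670 on every array, 343 features were above it on at least 2 arrays. The same limma test called 1 of them (0.292%), higher, and 0 lower, with 13 higher and 22 lower at an unadjusted p under 0.05. The median log2 difference was 0.00. Ranked over the 282 features alone, both high arrays were below all low ones for 41 (14.5%) and above for 30 (10.6%), and limma called 0, with 31 at an unadjusted p under 0.05. So 178 lower and 0 higher as deposited stand beside 0 lower and 1 higher after normalization.

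Of the 178 features called lower as deposited, 163 could still be tested after normalization. Relative to the shared distribution 121 of them were lower and 42 higher, with a median log2 difference of -0.12. Over all 343 features tested, 173 were lower and 170 higher. The 178 were chosen for low values on these same arrays, so their lean to lower is no separate support. After normalization M2a12 read 8272, 10446, 8516, 4839 and 3951 over the rising doses, 2.06-fold lower on the high side (adjusted p = 0.18 by limma). 91h12 was at least 1.79-fold lower (adjusted p = 0.23), with its 10 µg/mL value at the floor. M3a02 was the feature called higher. It was at the floor at 0 and 0.01 µg/mL and read 4504, 11106 and 13752 at 0.1, 1 and 10 µg/mL, at least 3.14-fold higher (log2 difference 1.65, adjusted p = 0.029 by limma). With 2 of its 3 low values at the floor, its spread on that side is understated. Without CM alone or the 0.1, 1 or 10 µg/mL array limma called 0 features after normalization, with 33, 18, 32 and 20 at an unadjusted p under 0.05.

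**Figure D4:**
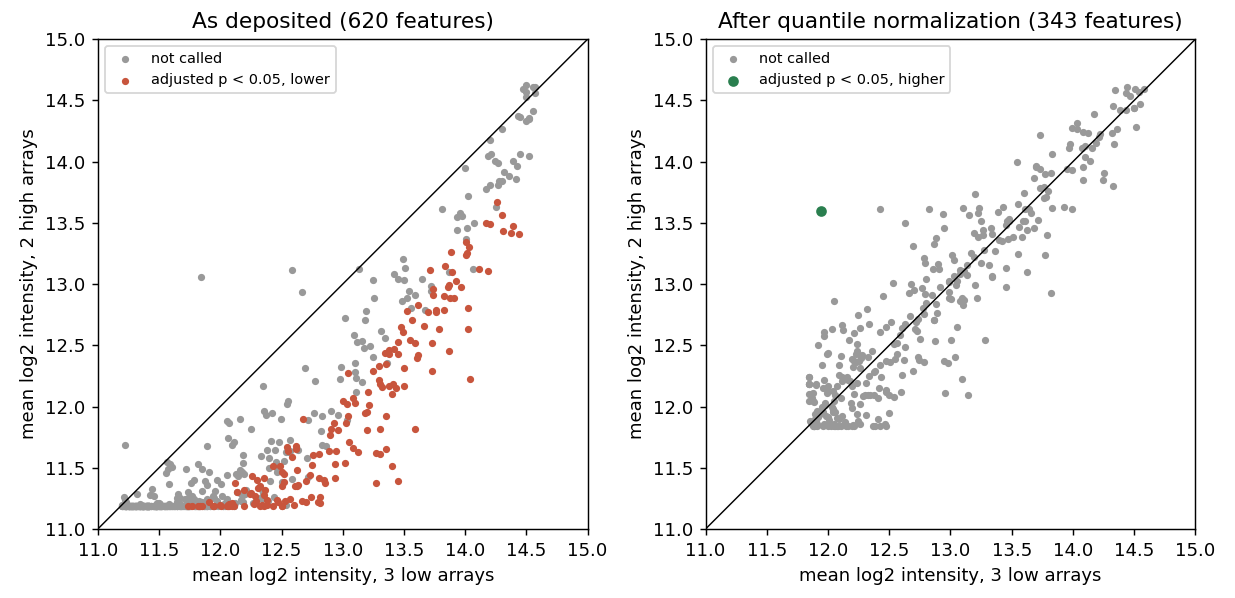
Mean log2 intensity of each feature on the 2 high arrays against the 3 low arrays, as deposited (left, 620 features) and after quantile normalization with a common floor (right, 343 features); the line marks equal means. As deposited 608 of the 620 features lie under the line, 178 of them called, and after normalization 173 of 343 lie under it and M3a02 is called. The 620 include features at the floor on both high arrays, which cannot lie above the line. Of the 282 features never at the floor, 275 lie under the line as deposited.

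The difference depended on brightness. To sort features by a measure that neither side contributed to, the 282 were divided into 4 classes by their intensity without CM. The median log2 difference was -0.74 in the dimmest class (n = 71), -1.02 and -0.90 in the middle classes (n = 70 each) and -0.61 in the brightest (n = 71). The SD over features was 0.40, 0.34, 0.31 and 0.48 from dimmest to brightest. In the dimmest class the floor limits how low a high array can read.

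The brightest features were lower too, by less. Of the 53 features above 18000 intensity units without CM, 47 were lower and 6 higher on the high side, with a median log2 difference of -0.46 (SD over features 0.43, range -1.82 to 0.13), and 6 were at least 2-fold lower. Of the 53, 13 read above 18000 on all 5 CM arrays as well, a choice that by itself keeps their differences small, and 5 of these share the ID position a01 under different M prefixes. The highest value on an array was 24073 to 27395 and did not separate the sides. With each array centred on the median of the 282 features, limma called 15 of the 282 higher and 1 lower (M2a12), and 11 of the 15 were among those 13. Centring raises the high arrays against the low ones by the difference of their medians. Features chosen to differ little as deposited therefore come out higher, so these 11 calls follow from the choice and are no separate support.

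**Figure D5:**
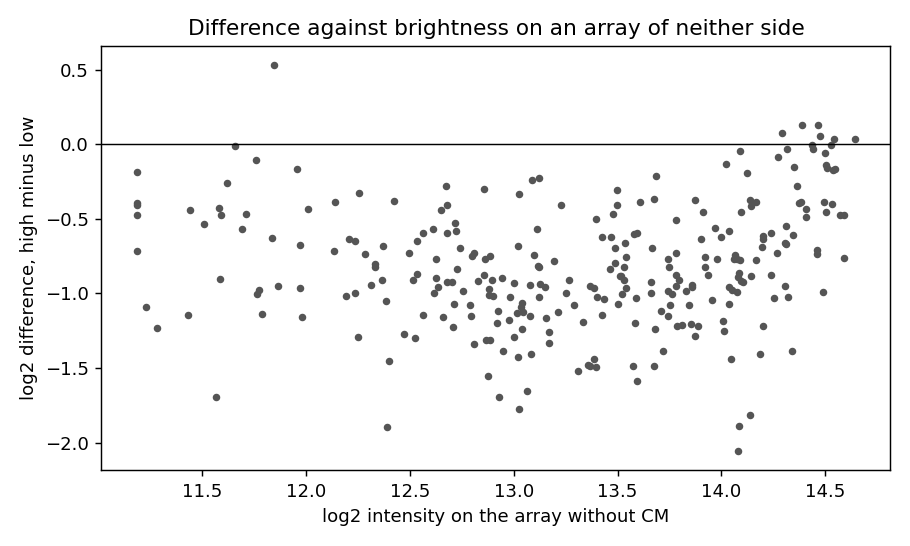
Log2 difference, high minus low, of the 282 features never at the floor on the 5 CM arrays against their log2 intensity on the array without CM, which is on neither side. Of the 282 features 275 lie below 0, with a median of -0.87, and the class brightest without CM has a median of -0.61.

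The shift was seen in every block of IDs. The IDs have 12 prefixes of 96 features, each with 8 letters and 12 numbers. The median log2 difference over the 282 features was negative in all 12 prefixes, from -1.07 in M1 to -0.65 in A4. By letter it ran from -0.96 to -0.75 and by number from -1.01 to -0.62. The share of tested features called lower ran from 12.2% in M3 to 45.9% in 91, beside 28.7% over all prefixes, but each prefix holds only 25 to 84 tested features and their brightness differs.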

How the data were processed

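The deposited values are linear intensity values of 1-label (digoxigenin) spotted arrays, 1 column per condition. Per the labels, images were digitized with GenePix 5. The design text adds that 3 spots of a gene were averaged, that arrays were rescaled by quantiles and the GAPDH spot, and that a floor of 2330 was applied. No genome build is involved, and the number of arrays limits the precision.

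Differences are of log2 deposited intensity with no pseudocount. limma 3.58.1 in R 4.3.3 (lmFit, eBayes, Benjamini-Hochberg over all features tested) compared the 2 high with the 3 low arrays, over features above the floor on at least 2 of the 5. Quantile normalization gave features tied at the floor the highest rank of their tie, and the highest resulting floor was then set on all arrays. Spread between arrays, ID prefixes and brightness were described without a test. The code was tested on simulated data.

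The named features are the 2 lowest differences among called features never at the floor, and members of counts of 5 or fewer; A3b01 was picked after its values were seen. The division into sides, the lists and the thresholds were chosen with earlier results of these data known. Gene and marker lists were not used, as no feature has a gene name here.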

Additional observations from a re-analysis of the deposited data

How the results depend on the processing

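Of the alternatives, median scaling tested over the 282 features alone and the test of the features above the floor on all 3 low arrays were added after seeing the data. The 178 features called lower became 13 lower with every feature tested, 100 with a 2-fold minimum and 105 with the floor raised to 4660. Scaling left 1 (higher) by quantiles and by the 75th percentile, 0 after cyclic loess (29 at an unadjusted p under 0.05), 0 after median scaling with a common floor (74 at an unadjusted p under 0.05) and 16 (15 higher, 1 lower) after median scaling of the 282 features. Leaving out each array in turn gave 0 to 251. The 1 feature called after quantile normalization became 0 with all features, with the features above the common floor on all 5 arrays, with an intensity trend in limma, with average ranks at the floor and with ranks over the 282 features (33, 20, 40, 92 and 31 at an unadjusted p under 0.05), and 0 to 1 with 1 array left out. The 31 features 2-fold apart became 130 at 1.5-fold, 2 at 3-fold, 374 (373 lower, 1 higher) with no minimum, and 15 and 10 lower with the floor raised to 3670 and 4660. They became 1, higher, after quantile, median and 75th percentile scaling and with average ranks, and 31 lower with 1 higher up to 75 lower with 1 array left out. Other calls of these counts stayed within 1.5 times. The fall in array brightness on the log2 scale kept its direction in all 7 alternatives, from -1.10 to -0.34. Both high arrays lay under every low array, and the sides were drawn with this dimness known. Leaving out 1 array could therefore not change the direction, so the kept direction is no separate support. The -0.34 is a difference of means over all features, floor values included, and the others are differences of medians. The ratio of between-side to within-side spread, 1.23, was 1.10 to 1.23. Of 32 values for the 4 named features none changed direction. As calls, 17 were the same, 12 weaker and 3 stronger. The features were picked for their differences on these arrays, so a kept direction is no separate support. No paired analysis was possible because the arrays carry no replicate numbers in the labels. Signal is the limit: the high arrays had 784 and 844 features at the floor, where a fall has only a bound.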
